A study of Bos taurus with 4 samples.

Results

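Cell cycle and DNA replication genes encode the proteins that copy the genome and divide the cell, and 45 of them were followed here by gene symbol. They were taken from 4 functions, namely replication, mitosis, the cyclins and the inhibitors of cyclin-dependent kinases, by a rule that reads symbols and no measured value. Earlier results of these data were known when the genes were chosen. All 45 symbols were found, each on a single row, among 29792 rows of the gene tables, and all 45 had at least 1 read in some library. Bovine RNA was measured by QuantSeq, a method that reads the 3′ ends of polyadenylated RNA, in 1 library each of intestine tissue, muscle tissue, intestinal organoids at passage 5 (P5) and intestinal organoids at passage 10 (P10). The labels of all 4 samples name Hanwoo, a Korean cattle breed, and healthy animals over 24 months old, and the organoids were grown from jejunal crypts in Matrigel, a basement membrane gel, with IntestiCult medium. Whether tissues and organoids came from the same animal was not given in the sources used here. No group had a replicate, so no difference between animals or cultures could be separated from a difference between conditions, and no p-value is given.

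Dividing cells of the intestine sit in the crypts, where stem cells and their transit-amplifying daughters cycle before they leave for the villus and stop dividing. A cycling cell passes from G1, in which D-type and then E-type cyclins relieve the block on E2F transcription factors, to S phase, in which MCM helicases open the origins and nucleotide synthesis supplies the forks. G2 and M follow, under cyclins A and B with CDK1, and the anaphase-promoting complex then destroys the mitotic regulators. CDKN1A (p21) and CDKN1B (p27) hold cyclin-dependent kinases back, and mature skeletal muscle fibres no longer divide.

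Library totals lay between 12917720 and 17776273 reads. The muscle library carried the markers of skeletal muscle, with 30658 CPM over 9 markers (CPM, reads of a gene for a library total of 1000000) against 3.26 in intestine and 2.35 or fewer in the organoids. It also held 23.6% of its reads on the ribosomal gene RN18S1, against 0.264 to 4.81% elsewhere. Intestine carried 5499 CPM of 15 leukocyte markers, and the organoids carried 17.6 (P5) and 25.7 (P10), with 9 of the 15 markers at 0 in each. The summed level of 12 epithelial markers was 3453 in intestine, 54.2 in muscle, 13530 in P5 and 11275 in P10 organoids. Differences below are of log2(quantile-normalised reads + 1), with 95% intervals that cover counting error only. A gene was called higher or lower where 2 libraries differed 2-fold or more and either held 10 reads or more. In bulk RNA, fewer cycling cells and less RNA per cycling cell cannot be told apart.

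The cell cycle genes formed an ordered series over the 4 libraries. Their median level was 0.852 CPM in muscle, 8.16 in intestine, 34.7 in P5 and 58.9 in P10 organoids. The order P10, P5, intestine, muscle, from high to low, was met by 30 of the 45 genes on the quantile scale and by 38 in CPM. Orders were read from the values alone, so steps within counting error, as for CDC6 and CCNA2 between passages, count as ordered. P10 organoids held the highest level of 37 genes and P5 organoids that of 7 on the quantile scale, and of 38 and 6 in CPM. On both scales CDKN1B was the single gene highest in intestine, and none was highest in muscle. In muscle, 12 genes had no read and 17 had 3 reads or fewer, while each organoid library had at least 100 reads for 44 genes.

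**Figure D1:**
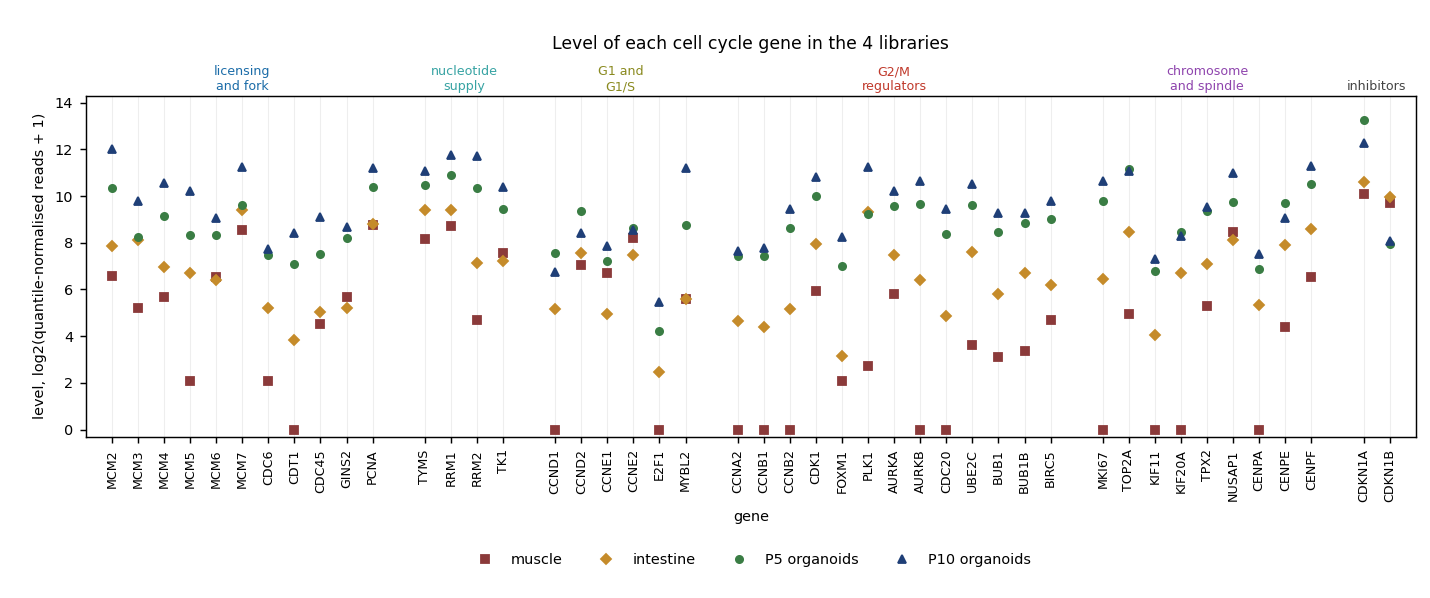
Level of each of the 45 genes, as log2(quantile-normalised reads + 1) on the vertical axis, with genes grouped by function along the horizontal axis and 1 symbol per library; a symbol at 0 is a gene with no read. P10 organoids (triangles) lie highest for 37 genes, and the muscle squares lie at 0 for 12 genes, among them CDT1, CCNB1, AURKB and MKI67.

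Organoids were first set against the intestine they model. Of the 45 genes, 41 were called higher in P5 organoids and 1 lower, where 24.9% of all 17783 rows tested were called higher and 22.8% lower. In P10 organoids 43 were called higher and 1 lower, against 28.0% and 26.1% of 17803 rows. Under TMM scaling the rows called higher and lower became 18.1% and 26.7% for P5, and 21.8% and 31.3% for P10, while 39 and 41 of the genes were higher. The median difference of the genes was 2.24 in P5 and 2.87 in P10, beside 0.11 for all rows tested in each. Both comparisons use the same intestine library. The genes called higher in both organoid libraries numbered 40. MCM3, MCM7 and PLK1 reached 2-fold in P10 alone, CCND2 in P5 alone, and CDKN1B was lower in both.

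**Figure D2:**
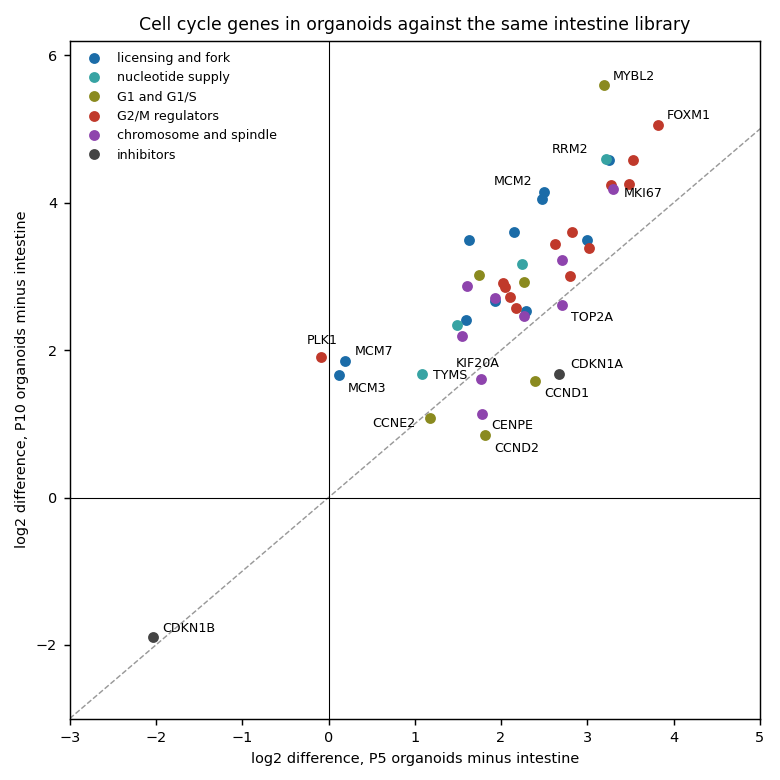
Each point is 1 gene, with its log2 difference from intestine in P5 organoids on the horizontal axis and in P10 organoids on the vertical axis; both axes use the same intestine library, and the dashed line marks equal values. Most points lie above the line, PLK1, MCM3 and MCM7 lie near 0 on the P5 axis and near 2 on the P10 axis, and CDKN1B lies alone at the lower left.

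Origins are licensed by CDC6 and CDT1, which load the MCM2-7 ring onto DNA, and CDC45 and the GINS complex then turn the ring into an active helicase. All 11 licensing and fork genes were called higher in P10 organoids against intestine, with a median difference of 3.50, and 9 of 11 in P5 organoids, with a median of 2.15. MCM2 had 16.1 CPM in intestine, 2.63 in muscle, 98.9 in P5 and 301 in P10 organoids, so that P10 exceeded intestine by 4.15 (3.97 to 4.35) on the log2 scale. MCM5 had 8.16, 0.0774, 23.7 and 92.6 CPM in that order. CDT1, the licensing factor that cells degrade once S phase begins, had 1.46, 0, 9.41 and 27.1, and CDC6 had 3.54, 0.0774, 12.7 and 16.8. PCNA, the sliding clamp of the polymerases, had 29.5 in intestine, 13.3 in muscle, 101 in P5 and 175 in P10. GINS2 had 3.54, 1.55, 21.3 and 33.1. MCM4, MCM6, CDC45 and GINS2 were 1.92 to 3.00 higher in P5 and 2.67 to 4.06 higher in P10 organoids.

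The 6 MCM proteins work in a ring with 1 copy of each, but their transcripts did not keep the same proportions in tissue and organoids. MCM3 had 19.1 CPM in intestine, 1.16 in muscle, 22.1 in P5 and 69.2 in P10, and MCM7 had 44.4, 11.1, 58.1 and 182. P5 organoids and intestine therefore differed by only 0.12 (-0.12 to 0.35) for MCM3 and 0.20 (0.04 to 0.34) for MCM7, whereas the 4 other MCM genes were 1.63 to 2.50 higher. Counted against MCM2 in the same library, there were 1.19 (1.01 to 1.40) MCM3 reads per MCM2 read in intestine, 0.223 (0.196 to 0.253) in P5 and 0.230 (0.216 to 0.245) in P10. The MCM7 reads per MCM2 read were 2.76 (2.41 to 3.17), 0.587 (0.537 to 0.642) and 0.605 (0.579 to 0.633). For both ratios the intervals of the organoid libraries overlapped and lay below that of intestine. The MCM4 reads per MCM2 read were 0.591, 0.424 and 0.386, those of MCM5 0.507 (0.412 to 0.621), 0.239 (0.211 to 0.271) and 0.308 (0.291 to 0.325), and those of MCM6 0.434 (0.348 to 0.537), 0.239 (0.211 to 0.2698) and 0.143 (0.133 to 0.154). MCM2 was the MCM gene furthest above intestine in both organoid libraries. That all 5 ratios were lower in the organoids than in intestine therefore follows from dividing by MCM2. The ratios of MCM5 and MCM6 also differed between the passages beyond counting error, in opposite directions. Such ratios do not depend on the scaling of a library. Leukocyte markers were high in intestine as given above, and their part in these ratios was not tested.

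All 4 nucleotide supply genes were called higher in both organoid libraries against intestine, with medians of 1.87 in P5 and 2.76 in P10. RRM2, the S-phase subunit of ribonucleotide reductase, had 10.4 CPM in intestine, 0.852 in muscle, 97.6 in P5 and 252 in P10 organoids. RRM1, the large subunit, had 44.3, 12.6, 143 and 257. The RRM2 reads per RRM1 read accordingly stood at 0.234 in intestine, 0.0675 in muscle, 0.685 in P5 and 0.982 in P10. TK1, the thymidine kinase of dividing cells, had 10.97, 5.19, 52.5 and 104 CPM, and TYMS, which makes thymidylate, had 43.7, 8.05, 107 and 160. TYMS was the member of the group that differed least from intestine, by 1.08 (0.96 to 1.22) in P5 and 1.68 (1.56 to 1.80) in P10.

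Among the 6 G1 and G1/S genes, all 6 were called higher in P5 organoids against intestine and 5 in P10 organoids. MYBL2, a transcription factor of the complex that switches on G2/M genes, had 4.44 CPM in intestine, 1.47 in muscle, 32.6 in P5 and 173 in P10. Its difference between P10 and intestine, 5.60 (5.20 to 6.01), exceeded that of every other of the 45 genes. The D-type cyclins, which carry growth signals to CDK4 and CDK6, took another course. CCND1 had 3.43, 0, 13.2 and 7.73 CPM, and CCND2 had 13.3, 3.56, 49.7 and 27.0, so both were highest in P5 organoids. CCND2 was 1.81 (1.58 to 2.07) above intestine in P5 and 0.84 (0.60 to 1.11) in P10, and it passed 2-fold in P10 when CPM were used. CCND1 and CCNE2, called higher in P10 organoids than in the tissue at 1.58 (1.10 to 2.05) and 1.09 (0.83 to 1.34), fell short of 2-fold under TMM and upper quartile scaling.

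The E-type cyclins, partners of CDK2 at the start of S phase, differed between each other. CCNE1 had 3.04 CPM in intestine, 2.86 in muscle, 10.4 in P5 and 18.6 in P10, and CCNE2 had 12.7, 8.44, 29.4 and 29.7. There were 4.17 (3.08 to 5.72) CCNE2 reads per CCNE1 read in intestine and 2.95 (2.01 to 4.40) in muscle. P5 organoids had 2.82 (2.32 to 3.44) and P10 organoids 1.60 (1.39 to 1.84). Only the P10 interval lay apart from the others. E2F1, the activator of many S-phase genes, was scarce throughout, with 11 reads in intestine, 0 in muscle, 14 in P5 and 46 in P10. Its difference of 1.75 (0.45 to 2.84) between P5 organoids and intestine fell short of 2-fold under CPM and under TMM and upper quartile scaling.

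The G2/M group of 13 genes, which holds the mitotic cyclins, kinases and checkpoint proteins, had median differences from intestine of 2.80 in P5 and 3.39 in P10 organoids. All 13 were called higher in P10 organoids and 12 in P5, with PLK1 as the exception. FOXM1, a transcription factor of G2/M genes, had 0.956 CPM in intestine, 0.0774 in muscle, 8.82 in P5 and 24.1 in P10, with differences from intestine of 3.82 (3.05 to 4.72) and 5.06 (4.32 to 5.94). CDC20, which activates the anaphase-promoting complex, had 2.87, 0, 24.8 and 55.2. CCNB2 had 3.49, 0, 29.6 and 54.4, CCNB1 had 2.08, 0, 11.99 and 17.4, and CCNA2 had 2.42, 0, 12.1 and 15.7. All 3 cyclins were without a read in muscle, and the interval for CCNA2 between the organoid libraries covered 0. CDK1, the kinase they activate, had 17.0, 1.78, 76.3 and 135.

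The mitotic kinases did not all follow the group. AURKB, of the chromosomal passenger complex, had 6.98 CPM in intestine, 0 in muscle, 61.5 in P5 and 123 in P10, and BIRC5 (survivin) of the same complex had 6.19, 0.852, 38.5 and 68.9. AURKA, which acts at the centrosomes, had 12.9, 1.63, 57.6 and 92.3. PLK1, a kinase of mitotic entry and spindle assembly, had 42.1 in intestine, 0.155 in muscle, 45.4 in P5 and 178 in P10. Its level in P5 organoids was not separable from that in intestine, at -0.09 (-0.24 to 0.07) and with the sign turned under CPM, while P10 stood 1.91 (1.79 to 2.02) higher. PLK1 reads per CDK1 read were 2.48 (2.16 to 2.84) in intestine, 0.0870 in muscle, 0.596 (0.539 to 0.659) in P5 and 1.32 (1.25 to 1.39) in P10. UBE2C, the ubiquitin-conjugating enzyme of the anaphase-promoting complex, had 13.6, 0.387, 58.5 and 112 CPM. The checkpoint kinases BUB1 and BUB1B were 2.62 and 2.17 above intestine in P5, and 3.44 and 2.58 above it in P10.

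All 9 chromosome and spindle genes were called higher in both organoid libraries against intestine, with medians of 1.93 in P5 and 2.61 in P10. MKI67, which encodes the proliferation marker Ki-67, had 7.20 CPM in intestine, 0 in muscle, 65.5 in P5 and 122 in P10. Its difference from intestine was 3.30 (2.96 to 3.66) in P5 and 4.18 (3.85 to 4.53) in P10. TOP2A, the topoisomerase that untangles sister chromatids, had 23.8, 1.01, 171 and 161, so the organoid libraries were nearly level. CENPF, a kinetochore protein, had 25.8, 2.55, 111 and 187, and CENPE, the kinetochore motor, had 16.8, 0.697, 62.4 and 42.2. KIF20A, a kinesin of cytokinesis, had 8.10, 0, 26.1 and 25.2, and NUSAP1, a spindle microtubule protein, had 19.1, 10.1, 64.3 and 153. KIF11, KIF20A, TPX2, NUSAP1 and CENPA were 1.55 to 2.71 above intestine in P5 and 1.60 to 3.23 above it in P10. CENPA, the histone of the centromere, was 1.55 (1.06 to 2.01) above intestine in P5 and lost 2-fold under TMM and upper quartile scaling.

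The inhibitors moved apart. CDKN1A had 97.9 CPM in intestine, 38.2 in muscle, 662 in P5 and 359 in P10 organoids, which placed it 2.67 (2.60 to 2.75) and 1.68 (1.61 to 1.76) above intestine. CDKN1B had 64.1, 28.1, 17.7 and 21.7, which placed it 2.03 (1.83 to 2.23) and 1.90 (1.73 to 2.05) below. Among the 45 genes CDKN1B was the only one called lower in organoids than in intestine, and it was so in both libraries. CDKN1B reads per CDKN1A read were 0.655 in intestine and 0.736 in muscle, but 0.0268 in P5 and 0.0604 in P10 organoids.

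**Figure D3:**
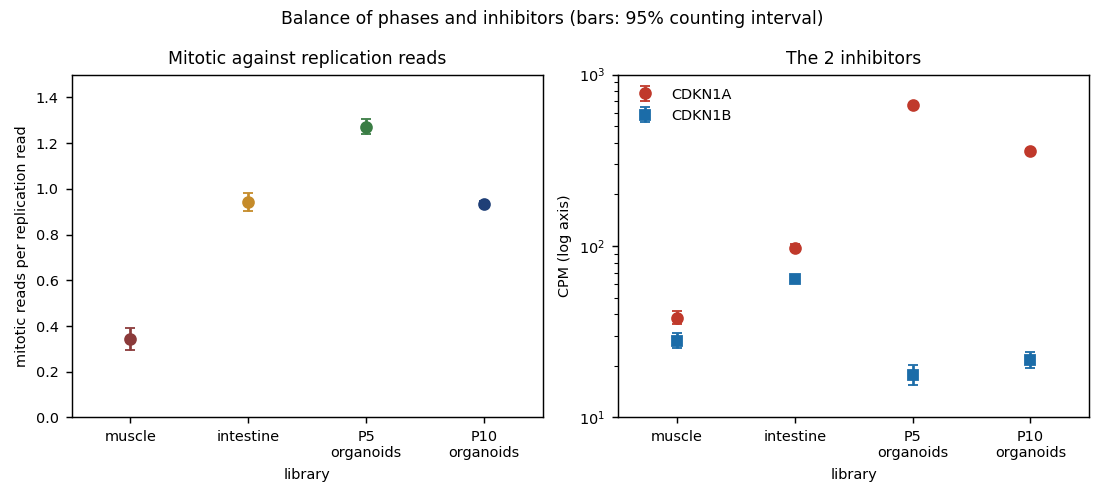
Left, reads of the G2/M and chromosome genes per read of the licensing and nucleotide genes in each library, with 95% counting intervals; right, CDKN1A and CDKN1B in CPM on a log axis. P5 organoids stand highest on the left at 1.27, and the inhibitors are close together in the tissues and far apart in the organoids.

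Because the intestine library holds many cell types and the organoids are epithelial, the genes were also counted against epithelial transcripts. Without the 2 inhibitors, the genes summed to 532 CPM in intestine, 98.9 in muscle, 2013 in P5 and 3881 in P10 organoids, a ratio to intestine of 3.78 (3.69 to 3.87) in P5. Per 1000 reads of the 12 epithelial markers, the same sum was 154 (151 to 157) in intestine, 149 (147 to 151) in P5 and 344 (341 to 347) in P10. On that scale P5 organoids and intestine thus differed by a ratio of 0.965 (0.943 to 0.988), whereas P10 organoids stood 2.23 (2.19 to 2.28) times above intestine. Only the denominator is restricted to epithelium, here and in the ratios below. Cell cycle reads of other cell types in intestine, if any, stay in its sum, and their part was not tested. Per epithelial read, the licensing sum was lower in P5 organoids than in intestine, at 31.5 against 42.1. The G2/M sums were at 35.9 and 35.8, and the chromosome and spindle sum was higher at 41.8 against 33.7.

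Keratins held most of the epithelial reads, so the ratio was taken again over the 8 epithelial markers that are no keratins, an alternative chosen after seeing the data. P5 organoids were then 1.16 (1.13 to 1.19) times above intestine and P10 organoids 2.85 (2.79 to 2.92) times. The ratio between P5 organoids and intestine thus changed direction with the choice of markers, and that between P10 organoids and intestine did not. By group, P5 organoids against intestine gave 0.747 with all 12 markers and 0.898 (0.857 to 0.941) without keratins for licensing genes, 0.934 and 1.12 (1.07 to 1.18) for nucleotide genes, and 0.928 and 1.12 (1.02 to 1.22) for G1 and G1/S genes. For G2/M genes the ratios were 1.00203 and 1.20 (1.15 to 1.26), and for chromosome and spindle genes 1.24 and 1.49 (1.42 to 1.57). By sum, licensing genes were below and chromosome genes above intestine with both marker sets. MCM3 and MCM7 held 340 and 789 of the 2586 licensing reads in intestine, but 300 and 790 of the 5789 in P5. The licensing sum therefore does not describe each gene of the group, and the ratio without these genes was not taken. The 12 epithelial markers differed too, with a CPM sum in P10 organoids 0.833 (0.828 to 0.839) times that in P5. Of 11 tested, 4 were called lower and 1 higher in P10, beside 16.6% and 16.1% of all rows. Markers of epithelial cell types also differed. The 15 enterocyte markers summed to 12372 CPM in intestine, 5342 in P5 and 281 in P10. The 8 crypt stem cell markers summed to 284, 936 and 3250. OLFM4 accounted for much of the stem cell sum in the organoids, with 83.8, 599 and 1933, while LGR5 had 1.29, 2.50 and 0.508. On the quantile scale, 7 of the 8 stem cell markers lay higher and 1 lower in P10 than in P5 organoids. The part of these shifts in the cell cycle differences was not tested.

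**Figure D4:**
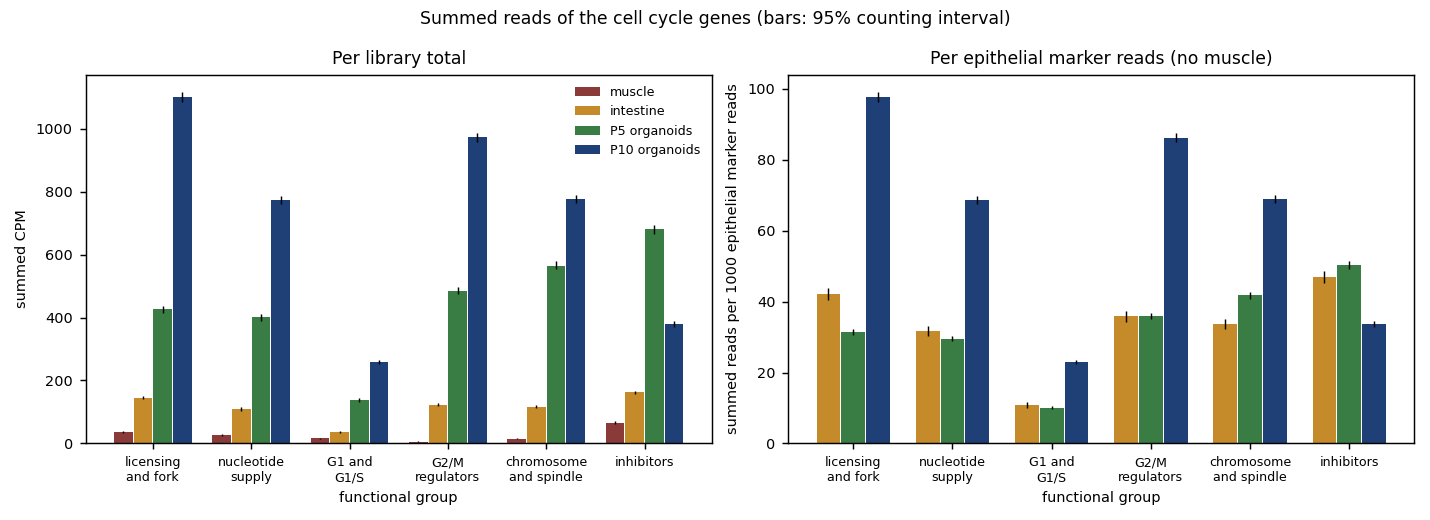
Summed CPM of each functional group (left, all 4 libraries) and per 1000 reads of 12 epithelial markers (right, without muscle); bars start at 0 and the vertical lines are 95% counting intervals. On the left every group is higher in P5 organoids than in the tissue, and on the right P5 organoids lie at 31.5 for licensing genes, below the 42.1 of intestine.

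Passages were then compared directly, which asks whether the cell cycle genes stayed at 1 level in long culture. Of the 45 genes, 14 were called higher in P10 than in P5 organoids and 0 lower, where 16.1% of all 16131 rows tested were called higher and 16.6% lower. The median difference was 0.78, beside 0.06 for all rows. Counting intervals lay above 0 for 35 genes, below 0 for 5 (CCND1, CCND2, CDKN1A, CENPE and TOP2A) and across it for 5 (CCNA2, CCNE2, CDC6, CDKN1B and KIF20A). The sign of CCNE2 turned under CPM.

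The difference between passages was not spread evenly over the cycle. Licensing and fork genes had 7 of 11 members called higher in P10, with a median of 1.45, and the range ran from CDC6 at 0.24 (-0.02 to 0.50) to MCM5 at 1.87 (1.72 to 2.04). By sums of CPM, P10 exceeded P5 organoids 2.58 (2.51 to 2.66) times for licensing and fork genes, 1.93 times for nucleotide genes, 2.002 for G2/M genes and 1.38 (1.34 to 1.41) for chromosome and spindle genes. The sum of the G1 and G1/S genes was 1.90 times higher, but MYBL2 held most of its P10 reads. Without MYBL2, an alternative chosen after seeing the data, the 5 other genes had 1519 reads in P10 and 1412 in P5, a ratio of 0.825 (0.767 to 0.888) per library total. That group had 3 genes above and 3 below P5, with a median of 0.28, against medians of 0.89 for nucleotide, 0.81 for G2/M and 0.52 for chromosome and spindle genes. In the last group only NUSAP1 of the 9 was called higher. Of the 6 MCM genes 5 were past 2-fold, MCM6 at 0.74 (0.57 to 0.93) being the exception.

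Of the 34 genes outside the licensing and fork group, 7 were called higher in P10, where 16.1% of all rows tested were. The shares were 25.0% for nucleotide, 33.3% for G1 and G1/S, 23.1% for G2/M and 11.1% for chromosome and spindle genes. Licensing and fork genes had 63.6%, and neither inhibitor was called higher. Outside that group, calls thus lay much nearer the share of all rows. MYBL2 led all genes with 2.41 (2.27 to 2.55), and PLK1 followed with 1.996 (1.87 to 2.12). RRM2, E2F1, FOXM1 and CDC20 lay at 1.38 (1.29 to 1.47), 1.27 (0.48 to 2.21), 1.25 (0.96 to 1.53) and 1.05 (0.87 to 1.21), and NUSAP1 at 1.26 (1.15 to 1.37). The B-type cyclins and CDK1 differed by 0.37 to 0.81, and MKI67 by 0.88 (0.77 to 0.99). Lower in P10 were CDKN1A by -0.99 (-1.03 to -0.94), CCND2 by -0.97 (-1.15 to -0.79), CCND1 by -0.82 (-1.10 to -0.53) and CENPE by -0.65 (-0.79 to -0.51), each short of 2-fold.

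**Figure D5:**
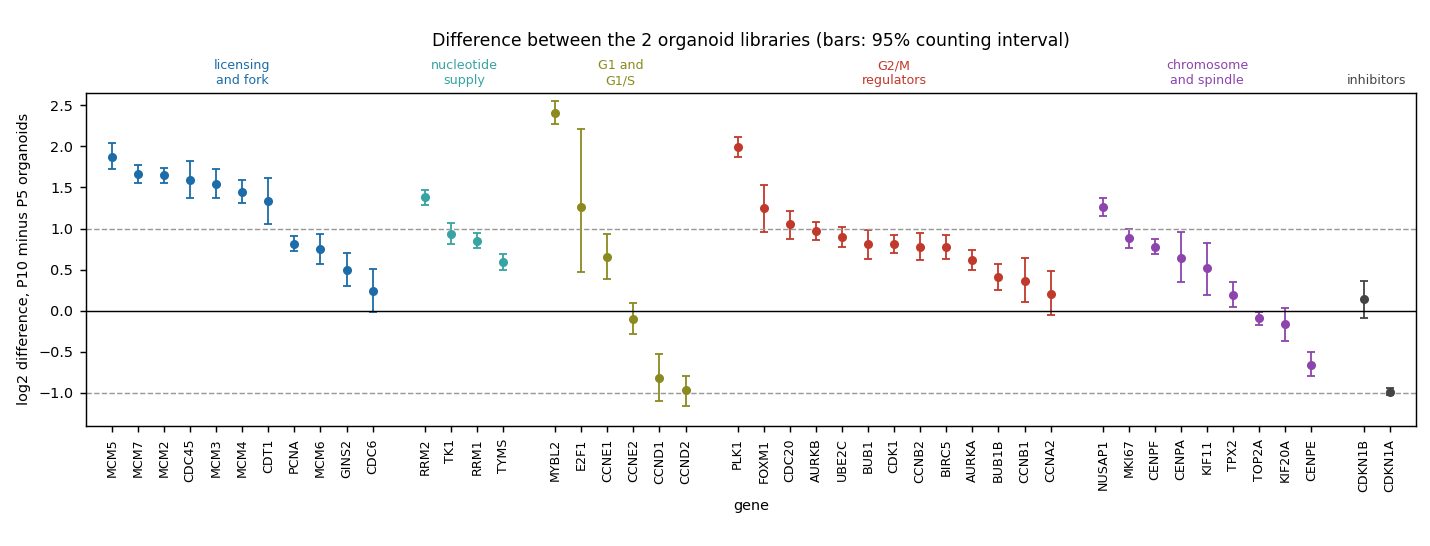
Log2 difference between P10 and P5 organoids for each gene, grouped by function and sorted within a group; vertical bars are 95% counting intervals and dashed lines mark 2-fold. MYBL2 stands highest at 2.41, most licensing genes lie above the upper line, and the D-type cyclins and CDKN1A lie just above the lower one.

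Within a library, the reads of G2/M and chromosome genes were set against those of licensing and nucleotide genes, a ratio that no scaling affects. It was 0.942 (0.903 to 0.982) in intestine, 0.342 (0.297 to 0.393) in muscle, 1.27 (1.24 to 1.30) in P5 and 0.934 (0.919 to 0.948) in P10 organoids. The intervals of intestine and P10 organoids overlapped, P5 organoids lay above both, and muscle lay below all 3. Paired regulators kept or shifted their balance gene by gene. There were 0.541 AURKB reads per AURKA read in intestine, 1.07 in P5 and 1.33 in P10. CCNB2 reads per CCNB1 read were 1.68 (1.10 to 2.59), 2.47 (2.06 to 2.98) and 3.13 (2.75 to 3.57), and the P5 interval overlapped both others. CCND2 reads per CCND1 read stayed near 3.89, 3.76 and 3.50.

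Muscle served as the tissue without crypts. Of the 45 genes, 31 were called higher in intestine than in muscle and 1 lower, where 32.3% of 17559 rows were called higher and 27.0% lower. With muscle counts of 3 or fewer set to a floor of 3 reads, 27 were called higher and the median difference of 2.06 became 1.50. In CPM, where the median of all rows itself was 1.31, 56.8% of rows were higher and 11.4% lower, and 42 genes were higher. Against muscle, P5 organoids were called higher for 42 genes and lower for 1, against 33.5% and 27.3% of 16840 rows, and P10 organoids for 43 and 1, against 35.2% and 28.5% of 16771 rows. CDKN1B was the gene lower in both. In CPM those shares were 56.2% and 17.3% for P5 and 57.7% and 18.8% for P10, and CDKN1B was within 2-fold.

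Mitotic genes separated intestine from muscle more than replication genes did. All 13 G2/M genes were called higher in intestine, 12 of them also against the floor, and their summed CPM were 22.8 (18.0 to 29.4) times those of muscle. PLK1 was at least 75.8-fold higher, KIF20A at least 12.2-fold and MKI67 at least 10.4-fold. In P10 organoids PLK1 was at least 284-fold, AURKB at least 190-fold, MKI67 at least 189-fold and MCM5 at least 140-fold higher than in muscle. In P5 organoids MKI67 was at least 103-fold and AURKB at least 96.6-fold higher.

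Muscle was not empty of cell cycle transcripts. It had 172 reads of PCNA, 163 of RRM1, 144 of MCM7, 131 of NUSAP1 and 109 of CCNE2. PCNA differed from intestine by 0.02 (-0.22 to 0.25), with the sign turned under upper quartile scaling, but in CPM it was called higher in intestine, at 29.5 against 13.3. CCNE1 was 1.76 (1.05 to 2.39) lower in intestine than in muscle, but in CPM it was 3.04 against 2.86. Another 6 genes, MCM6, GINS2, TK1, CCNE2, MYBL2 and NUSAP1, lay below the muscle level in intestine on the quantile scale and above it in CPM, so their order in the tissues followed the scaling. As the CPM of muscle in percent of that of intestine, PLK1 stood at 0.368, TOP2A at 4.23, CDK1 at 10.48, PCNA at 45.2 and CCNE1 at 94.3, beside 0.287 for the enterocyte gene FABP2.

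Genes of the same pathways outside the 45 were read as 5 further lists. Of 34 other replication genes, 19 were called higher in P5 organoids and 27 in P10 organoids against intestine, and 12 in P10 than in P5. These were 55.9%, 79.4% and 35.3% of the list, beside 24.9%, 28.0% and 16.1% of all rows. POLD1, the catalytic subunit of DNA polymerase delta, had 1.35 CPM in intestine, 1.01 in muscle, 9.78 in P5 and 57.98 in P10, and it was 2.39 (2.14 to 2.64) higher in P10 than in P5. TIPIN, a fork protection protein, followed at 1.84, and CLSPN at -0.30 and CHAF1B at -0.11 lay lowest. The 36 other mitotic genes lay on 37 rows. Of these, 32 were called higher and 1 lower in P5 than in intestine, and 34 and 1 in P10. With counts of 3 or fewer set to the floor, no row was called lower in either. Between passages, 7 of 36 tested were higher in P10 than in P5. The share of 19.4% between passages was near the 16.1% of all rows, whereas those against intestine were 86.5% and 91.9%. CDC25B (1.52) and HMMR (1.31) lay highest between passages, and SMC2 (-0.92) and KIF23 (-0.67) lowest. The median differences between passages were 0.71 for the replication list and 0.60 for the mitotic list.

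Of 18 other G1 and restriction point genes, 5 were called higher in P5 organoids, 10 in P10, and 4 in P10 than in P5. The shares were 27.8%, 55.6% and 22.2%, beside 24.9%, 28.0% and 16.1% of all rows, so that for P5 organoids lay near the background. CDK6, a partner of the D-type cyclins, had 74.4 CPM in intestine, 10.45 in muscle, 154 in P5 and 453 in P10, and its difference between passages was 1.61 (1.54 to 1.67), while CCND1 and CCND2 differed the other way. E2F6 followed at 1.48, and CCND3 at -0.34 and E2F5 at -0.27 lay lowest.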

How the data were processed

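RNA of 4 samples was sequenced as QuantSeq 3′ libraries, 1 per group. The authors aligned reads with Bowtie2 to a genome or transcript index, and Bedtools then gave counts in which multiple alignments took part. The deposited values are whole-number read counts per gene symbol, not normalised. Reads with several alignments were counted, so members with near-identical copies are uncertain. The genome build and the use of strand were not given in the sources used here.

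The 22200 rows with a read were quantile-normalised over the 4 libraries together, as the study's methods name, and analysed as log2(value + 1) (numpy 2.4.6 and scipy 1.17.1 in Python 3.11.15). Pairs of libraries were compared over rows where either had 10 reads or more, and a log2 difference of 1 (2-fold) was called. Intervals of 95% were built from exact Poisson bounds of both counts. Shares and ratios of summed reads carry exact binomial intervals. None of the intervals holds more than counting error. Counts of 3 or fewer were at the floor, and folds against them were taken against 3 reads. Such folds are lower bounds of the observed fold and leave out counting error. No test was run, since each group has 1 library.

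The 45 members, the pathway lists and the marker lists were chosen with earlier results of these data known. Genes are named by a rule: values in all libraries for 29 members, the 3 largest and 3 smallest differences of each comparison, members that go against their functional group, and the 2 largest and 2 smallest differences between passages of each pathway list; FABP2, OLFM4 and LGR5 were named after their values were seen. Alternatives were CPM with and without RN18S1, TMM and upper quartile scaling (edgeR 4.0.16, R 4.3.3), pseudocounts of 0.1 and 5, read minimums of 50 and none, rows summed by symbol, and epithelial denominators. Denominators without keratins, the G1 sum without MYBL2 and the order of libraries in CPM were chosen after seeing the data. The calculations were tested on simulated data. The 10 marker lists gave, beside those in the results, in CPM for intestine, muscle, P5 and P10: goblet cell 6128, 24.9, 1395 and 1027; stroma 998, 1206, 3.68 and 0.282; endothelium 43.8, 31.9, 1.54 and 2.31; smooth muscle 2108, 2240, 7.94 and 6.94; germinal centre B cell (4 rows) 29.6, 85.5, 10.2 and 27.1. Promoter motifs and sequences were not analysed here.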

Additional observations from a re-analysis of the deposited data

How the results depend on the processing

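Each group had 1 library, so no spread between animals or cultures is known, no library could be left out, and counting intervals were the only error. No paired analysis was possible because each group has 1 library. Counts were lowest in muscle, where 20 genes had fewer than 10 reads, so counting intervals are widest there. Over the settings tried, 39 to 41 genes were called higher in P5 organoids and 41 to 44 in P10 organoids against intestine, 13 or 14 in P10 than in P5, and 25 to 42 in intestine than in muscle. The causes of the changes below were not tested.

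The median difference between P10 organoids and intestine was 2.54 with upper quartile scaling. In CPM, with or without RN18S1, 0 genes were 2-fold lower in intestine, P5 or P10 organoids than in muscle, and 0 with TMM in intestine. The medians against muscle in CPM were 3.30 (intestine), 5.39 (P5; 5.09 without RN18S1) and 6.23 (P10). With RN18S1 left out of the totals, log2 ratios of summed reads between P10 and P5 were 1.30 (licensing), 0.88 (nucleotide), 0.93 (G2/M), 0.39 (chromosome) and -0.90 (inhibitors), and 0.88 for the 43 other genes together. Those between intestine and muscle were 1.73 (licensing), 1.70 (nucleotide), 0.87 (G1), 2.57 (chromosome) and 0.96 (inhibitors), and 2.10 for the 43 genes, for which P10 against intestine gave 2.81. Per epithelial read, P5 against intestine turned to -0.42 (licensing), -0.098 (nucleotide), -0.11 (G1) and -0.051 (43 genes), with 0.0029 (G2/M), 0.31 (chromosome) and 0.099 (inhibitors). P10 against intestine gave 1.21, 1.11, 1.08, 1.27, 1.03 and, turned, -0.48 in the order licensing, nucleotide, G1, G2/M, chromosome and inhibitors, and P10 against P5 gave 1.63, 1.21, 1.19, 1.26, 0.72 and -0.57. For the 43 genes these were 1.16 and 1.21. Without keratins, an alternative chosen after seeing the data, the 43 genes gave 0.21 (P5 against intestine), 1.51 (P10 against intestine) and 1.30 (P10 against P5). In the same group order, P5 against intestine then gave -0.16, 0.17, 0.16, 0.27, 0.58 and 0.36, P10 against intestine 1.57, 1.47, 1.43, 1.62, 1.39 and -0.12, and P10 against P5 1.72, 1.30, 1.27, 1.35, 0.81 and -0.49, so that nucleotide and G1 genes no longer turned. Without MYBL2, also chosen after seeing the data, G1 genes gave 1.65 (P5 against intestine), 1.37 (P10 against intestine) and, turned, -0.28 (P10 against P5). Of genes past 2-fold, CCNE1 alone changed sign between intestine and muscle, at 0.083 in CPM, and 6 genes within 2-fold (MCM6, GINS2, TK1, CCNE2, MYBL2 and NUSAP1) changed sign there too.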

Other observations

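The INK4 inhibitors, which bind CDK4 and CDK6, differed from each other, and CDKN2A had the same order of libraries in CPM as CDKN1A. CDKN2B had 36.3 CPM in intestine, 0 in muscle, 79.3 in P5 and 4.85 in P10 organoids, and it was lower in P10 than in P5 by -3.85 (-4.12 to -3.59) on the log2 scale. CDKN2A had 0.450, 0, 24.9 and 18.4, so it was scarce in intestine and well above the floor in both organoid libraries. CDKN2C was 0.45 (0.26 to 0.65) higher and CDKN2D 0.46 (0.28 to 0.64) lower in P10 than in P5. CDKN1C, a relative of p21 and p27, had 23.6, 50.7, 11.9 and 11.7, with the highest level in muscle. Of these 5 other inhibitors, 0 were called higher and 1 lower in P10 than in P5 organoids, where 16.6% of all rows were called lower.

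CDKN1A is a target of p53, and 15 other p53 targets were read beside it. In P5 organoids 5 were called higher against intestine and 1 lower, in P10 organoids 7 were higher and 2 lower, and between the passages 1 was higher and 1 lower in P10. The shares called higher were 33.3%, 46.7% and 6.67%, beside 24.9%, 28.0% and 16.1% of all rows, and those called lower 6.67%, 13.3% and 6.67%, beside 22.8%, 26.1% and 16.6%. The median differences were 0.90, 0.95 and 0.32. GADD45A, a stress-response gene, had 35.8 CPM in intestine, 25.9 in muscle, 76.8 in P5 and 18.2 in P10, and differed between passages by -2.15 (-2.33 to -1.97). FAS differed by -0.55, and PLK3 and BBC3 by 1.11 and 0.66. Between passages 10 of the 15 lay higher and 5 lower in P10, with 8 and 3 past counting error, so the list went both ways.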
